A study of Mus musculus with 16 samples.

Results

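Vgf, Cdhr2, Lrrc10b, Gkn1, Pip5kl1 and Cmtm2b are 6 mouse genes that were almost unread in unexposed epidermis and gave many reads after ultraviolet B (UVB). They were chosen from earlier results of the same count table, for having almost no counts in unexposed epidermis of 1 or both genotypes and many counts 6 h after UVB, and they are 6 of 49585 genes in that table. RNA was sequenced from the epidermis of hairless SKH-1 mice aged 8 to 12 weeks. The 4 groups of 4 libraries each were unexposed K5Cre controls, K5Cre controls 6 h after 100 mJ/cm2 of UVB, unexposed epidermis-specific C/EBPB knockouts, and such knockouts 6 h after the same dose. K5Cre is a Cre recombinase driven by the keratin 5 promoter, which is active in basal keratinocytes, so the knockout is a model of loss in keratinocytes and not in the other cells of the skin. C/EBPB, encoded by Cebpb, is a leucine zipper transcription factor. The labels do not say which libraries came from separate animals, so a p-value here measures the spread between these libraries, which may be technical.

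These 6 genes are best known outside the skin. Vgf encodes a secreted precursor that neurons and endocrine cells store in dense core granules and cut into peptides. Gkn1 encodes gastrokine 1, a protein that surface mucous cells of the stomach secrete. Cdhr2 encodes a protocadherin that joins the tips of brush border microvilli in gut and kidney. Cmtm2b belongs to the chemokine-like factor and MARVEL transmembrane domain family, Pip5kl1 encodes a relative of the phosphatidylinositol-4-phosphate 5-kinases that binds those kinases, and Lrrc10b encodes a leucine-rich repeat protein. Ultraviolet B is absorbed by DNA, and irradiated keratinocytes switch on stress and growth factor genes within hours.

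The libraries held 33.0 to 53.3 M counts, and 17741 genes passed the filter on low counts, all 6 members among them. Because the members had to pass through their exposed libraries, their passing is no result. Cebpb stood at 155 to 186 CPM (counts scaled to a common library size, with TMM factors) in unexposed controls and at 253 to 320 CPM in exposed controls, against 0.177 to 0.875 CPM in unexposed knockouts and 0.609 to 3.04 CPM in exposed knockouts, so every library had the Cebpb level of its label. All 10 keratinocyte markers were detected in all 4 groups, with summed levels of 38226 to 76939 CPM. After UVB 2 of the 10, Krt5 and Col17a1, were higher in knockouts than in controls by edgeR's adjusted p under 0.05. Another 2, Lor and Krtdap, were lower. Over all genes tested these shares were 2.36% and 2.32%. In whole epidermis, fewer cells of a type and less RNA per cell cannot be told apart. The smallest library, exposed control library 4 (33.0 M counts), also had the lowest value of its group for 4 of the 6 members and the highest for 0.

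On GRCm38 (GENCODE M21 gene models) the members lie on 6 chromosomes. Vgf (ENSMUSG00000037428) lies at chr5:137026392-137033351 on the plus strand, with 6 merged exon blocks. Gkn1 (ENSMUSG00000030050) lies at chr6:87345650-87350942 on the minus strand, with 6 blocks. Cdhr2 (ENSMUSG00000034918) lies at chr13:54701461-54736662 on the plus strand and is the longest, with 32 blocks. Cmtm2b (ENSMUSG00000035785) lies at chr8:104322230-104330764 on the plus strand, with 4 blocks. Pip5kl1 (ENSMUSG00000046854) lies at chr2:32574797-32583782 on the plus strand, with 12 blocks. Lrrc10b (ENSMUSG00000090291) lies at chr19:10455371-10457473 on the minus strand in 1 block. The median span of the members was 7.75 kb (2.10 to 35.2 kb), against 25.1 kb over the 14593 protein-coding genes tested.

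The RefSeq table of promoters (GRCm38.p6) held 5 of the 6 members, Vgf being the exception. The 3 sequences below are the 250 bases before a RefSeq start, written 5′ to 3′ on the gene's strand. They were chosen for being unlike each other, so they do not show how much the members' upstream sequences share. The motifs searched, on both strands, were AP-1 (TGACTCA or TGAGTCA), the cAMP response element (TGACGTCA) and its shorter core (TGACG), a C/EBP pattern (TTNNGNAA), the TATA box (TATAAA), the GC box (GGGCGG) and the CCAAT box. Capitals mark their matches, except those of the shorter core.
Gkn1, chr6:87350916-87351165, minus strand: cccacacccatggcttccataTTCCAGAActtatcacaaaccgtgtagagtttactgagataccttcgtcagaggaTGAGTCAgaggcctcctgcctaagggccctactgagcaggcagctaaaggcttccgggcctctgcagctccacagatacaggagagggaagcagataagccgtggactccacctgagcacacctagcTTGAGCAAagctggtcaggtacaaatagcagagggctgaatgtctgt
Lrrc10b, chr19:10457448-10457697, minus strand: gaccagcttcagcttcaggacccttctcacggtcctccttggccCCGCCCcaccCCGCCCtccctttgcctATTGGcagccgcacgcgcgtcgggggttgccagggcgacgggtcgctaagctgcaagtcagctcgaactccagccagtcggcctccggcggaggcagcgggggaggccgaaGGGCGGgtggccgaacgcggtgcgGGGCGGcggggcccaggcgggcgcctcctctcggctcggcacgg
Cdhr2, chr13:54701213-54701462, plus strand: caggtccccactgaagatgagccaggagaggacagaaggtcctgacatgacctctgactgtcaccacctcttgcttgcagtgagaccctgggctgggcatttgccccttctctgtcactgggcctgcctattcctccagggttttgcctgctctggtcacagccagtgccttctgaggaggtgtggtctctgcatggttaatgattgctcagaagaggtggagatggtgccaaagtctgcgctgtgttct

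The Gkn1 window held 1 AP-1 match, beginning 174 bases before the start, and 2 C/EBP pattern matches, beginning 229 and 47 bases before it. AP-1 matches of this kind were in 4.46% of 32851 promoters of the same length, and C/EBP pattern matches in 36.8%. The Lrrc10b window was 74.0% G or C with 29 CpG dinucleotides, 4 GC boxes and 1 CCAAT, whereas the Cdhr2 window had 1 CpG and no match to any motif searched. CCAAT was also in the windows of Cmtm2b and of 1 of 3 Pip5kl1 starts, so that 3 of 7 member starts held it, against 33.8% of all promoters. The shorter core of the cAMP response element was in 1 of 7 member starts, that of Gkn1, against 17.8% of promoters. The cAMP response element, in 1.55% of promoters, and TATAAA, in 12.4%, were in the window of 0 of 5 members. A match is only a run of letters, and no factor's binding was measured.

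Vgf was nearly unread in unexposed controls. It had 1 count in control library 1 (0.0219 CPM) and 0 in the other three, and exposed controls stood at 6.49, 5.10, 4.20 and 3.34 CPM. Unexposed knockouts gave 0, 0.142, 0.0805 and 0.625 CPM, and exposed knockouts 2.92, 4.45, 2.91 and 6.87 CPM. Every exposed library was above every unexposed one in both genotypes, and the highest unexposed value belonged to knockout library 4, with 20 counts. The group means after UVB were 4.78 ± 1.35 CPM in controls and 4.29 ± 1.87 CPM in knockouts (SD, n = 4). As a description of values that chose the gene, the ratio of exposed to unexposed CPM was 860 in controls (exact 95% counting interval 154 to 34015, from 1 and 691 counts), and the fitted fold in knockouts was 21.8 (log2 4.44, SE 0.77).

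**Figure D1:**
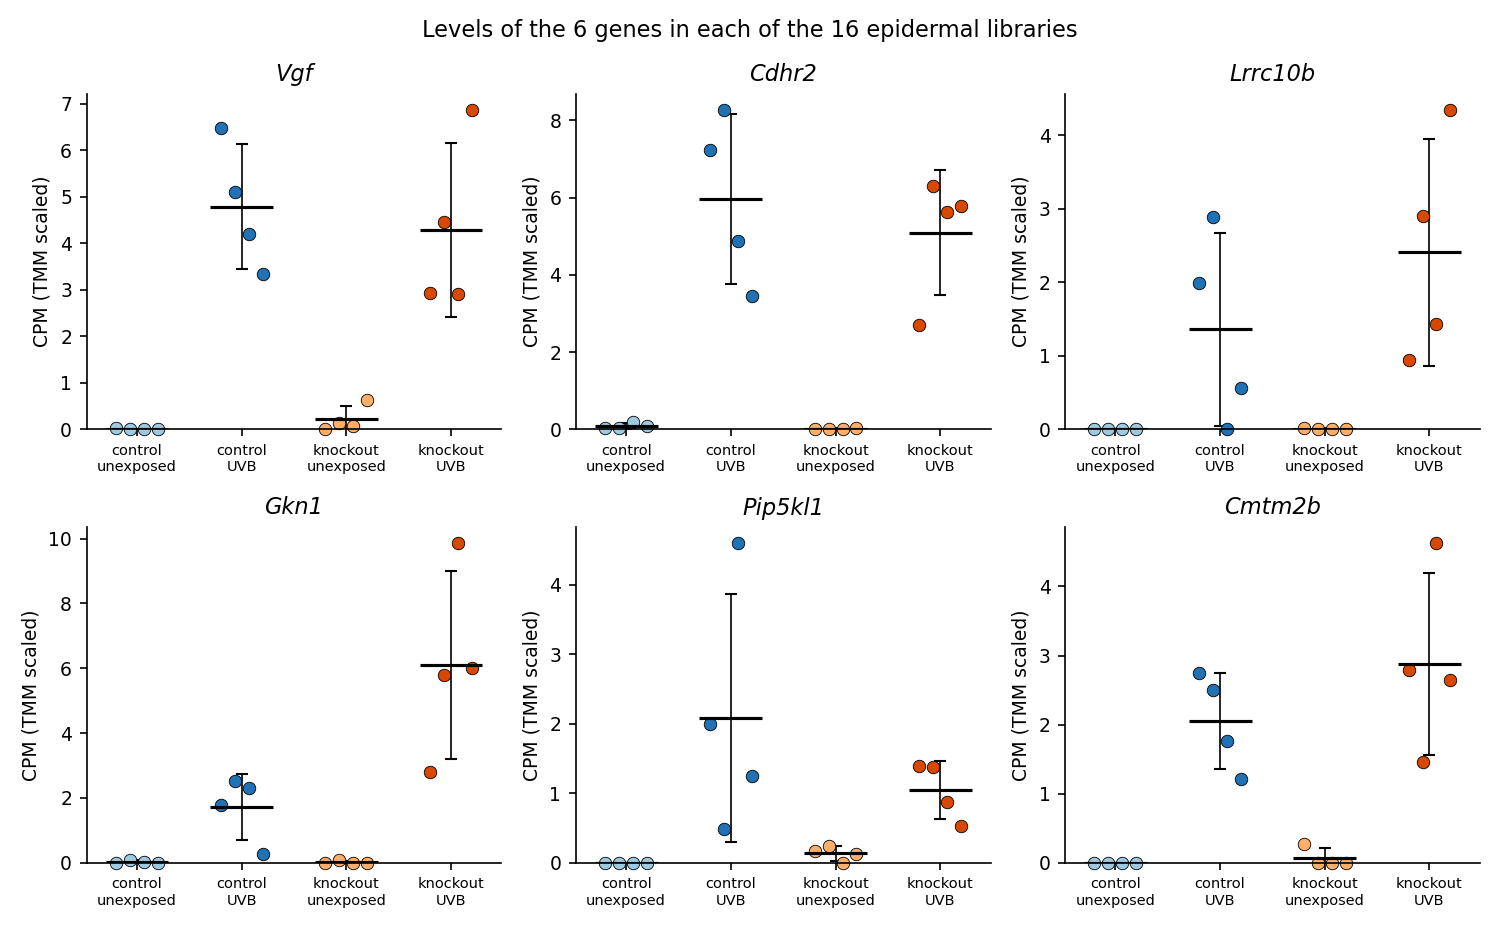
CPM of the 6 genes in each of the 16 libraries, by group (4 libraries a group), on a linear axis that differs between panels; points are libraries, horizontal bars the mean and whiskers 1 SD, cut at 0. Unexposed libraries lie at or near 0 in every panel, and the exposed groups of Gkn1 do not overlap between genotypes.

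Gkn1, the gastric gene, had 0, 0.0942, 0.0303 and 0 CPM in unexposed controls and 0, 0.0708, 0 and 0 CPM in unexposed knockouts, from 5 and 4 counts in all. After UVB it stood at 1.77, 2.52, 2.31 and 0.278 CPM in controls and at 2.79, 5.79, 9.86 and 6.02 CPM in knockouts. Neither genotype had overlap between exposed and unexposed libraries, and the low exposed control was library 4, with 8 counts. Means after UVB were 1.72 ± 1.01 CPM in controls and 6.11 ± 2.90 CPM in knockouts (SD, n = 4). The fitted folds over unexposed were 53.9 in controls (log2 5.75, SE 0.98) and 274 in knockouts (log2 8.10, SE 1.05), given as a description.

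Cdhr2, the microvillar protocadherin, had 2, 1, 6 and 4 counts in unexposed controls (0.0235 to 0.182 CPM) and 1 count in all in unexposed knockouts. After UVB it reached 7.23, 8.28, 4.87 and 3.44 CPM in controls and 2.69, 6.30, 5.62 and 5.78 CPM in knockouts. No exposed library came near an unexposed one, and the exposed means of 5.96 ± 2.20 and 5.10 ± 1.63 CPM (SD, n = 4) lay within 1 SD of each other. The fitted fold in controls was 75.3 (log2 6.24, SE 0.62), and the ratio in knockouts was 1015 (exact 95% counting interval 182 to 40146).

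Cmtm2b had 0 counts in every unexposed control and in 3 of 4 unexposed knockouts, and knockout library 1 held 17 counts (0.277 CPM). Exposed controls gave 2.74, 2.49, 1.77 and 1.22 CPM, and exposed knockouts 2.79, 1.45, 4.63 and 2.65 CPM. The exposed and unexposed groups were apart in both genotypes, while the exposed genotypes overlapped. Against a floor of 3 counts per library, Cmtm2b was at least 29.1-fold higher in exposed than in unexposed controls, and its fitted fold in knockouts was 36.9 (log2 5.20, SE 1.06). Without knockout library 1 the unexposed knockouts held 0 counts and the level after UVB was at least 41.7-fold higher.

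Pip5kl1, the kinase relative, also had 0 counts in all 4 unexposed controls, and it stood at 2.0, 0.481, 4.60 and 1.25 CPM after UVB. Unexposed knockouts were not silent for it, at 0.163, 0.248, 0 and 0.125 CPM, and exposed knockouts gave 1.39, 1.38, 0.876 and 0.533 CPM. Its exposed control libraries spanned the whole range of its exposed knockouts. It was at least 29.5-fold higher in exposed than in unexposed controls, and the fitted fold in knockouts was 7.60 (log2 2.93, SE 0.95), lower than for any other member. Whether the control and knockout folds differ was not tested, since the same contrasts chose the gene.

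Lrrc10b was the most uneven of the 6. It had 0 counts in all unexposed controls and 1 count in all in unexposed knockouts, and exposed controls gave 2.0, 2.88, 0 and 0.556 CPM. Exposed control library 3 therefore had no read of it, and this was the only case of the 12 gene and genotype pairs in which exposed and unexposed libraries overlapped. Exposed knockouts stood at 0.948, 2.90, 1.43 and 4.35 CPM. It was at least 19.3-fold higher in exposed than in unexposed controls, and the ratio in knockouts was 471 (exact 95% counting interval 84.1 to 18644). Reads without molecular identifiers are not independent molecules, so these intervals and floors cover counting error only. Of the 59 member counts of 2 or more, 38 were even, as were 68.8% of all counts from 2 to 101 in the table, and such intervals may be too narrow for this.

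Every exposed library was above every unexposed one for 5 of 6 members in controls, beside 16.3% of all genes tested, and for 6 of 6 in knockouts, beside 19.7%. By edgeR's adjusted p, 17.7% of tested genes were higher after UVB in controls and 18.1% in knockouts. The rule used these contrasts, so nothing is read from the counts. Over all genes, 25 had at most 3 counts over the 4 unexposed controls and at least 10 in each exposed control, and 29 genes had the same pattern in knockouts. Vgf, Pip5kl1 and Cmtm2b were among the 25, and Cdhr2 and Lrrc10b among the 29. Gkn1 lay just outside, with 5 and 4 unexposed counts. The 3 genes with this pattern in both genotypes were Gm13410, Gm37567 and Tie1, an endothelial receptor tyrosine kinase with means of 0.00758 CPM in unexposed and 1.02 CPM in exposed controls, and of 0 and 0.706 CPM in knockouts. The reverse pattern, silence after UVB, was held by 23 genes in controls, 3 in knockouts and 0 in both.

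Levels of the 6 genes can be compared with each other only per kilobase of exon. In exposed controls Cmtm2b was highest at 2.34 ± 0.791 CPM per kb, followed by Vgf at 1.61 ± 0.453, Cdhr2 at 1.44 ± 0.533, Gkn1 at 1.38 ± 0.809, Pip5kl1 at 0.834 ± 0.717 and Lrrc10b at 0.646 ± 0.627 (SD, n = 4). No neighbours in that order differed by more than the larger of their SDs. In exposed knockouts Gkn1 was highest at 4.89 ± 2.32 CPM per kb, then Cmtm2b at 3.27 ± 1.49, Vgf at 1.44 ± 0.628, Cdhr2 at 1.23 ± 0.395, Lrrc10b at 1.14 ± 0.732 and Pip5kl1 at 0.419 ± 0.167. Only Cmtm2b and Vgf were neighbours there that differed by more than the larger SD.

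The rule asked for many counts after UVB but did not compare exposed knockouts with exposed controls, so the members were tested in that comparison. Exposed levels were still part of the rule. Vgf, Pip5kl1 and Cmtm2b met the near-silent pattern above in controls only, and Cdhr2 and Lrrc10b in knockouts only. The test is therefore not fully independent of how the members were chosen. Of the 6 members, 0 passed at an adjusted p of 0.05 in edgeR's quasi-likelihood test with Benjamini-Hochberg adjustment, beside 4.68% of all genes tested (830 of 17741; 2.36% higher and 2.32% lower in knockouts). In unexposed epidermis 2.1% of tested genes were called (0.964% higher and 1.14% lower). The rule used the unexposed levels, so the members were not tested there and no fold is given. Summed counts in unexposed controls and knockouts were 1 and 32 for Vgf, 0 and 28 for Pip5kl1 and 0 and 17 for Cmtm2b. They were 13 and 1 for Cdhr2, 5 and 4 for Gkn1 and 0 and 1 for Lrrc10b. In exposed knockouts against exposed controls 1 member, Gkn1, had an unadjusted p under 0.05, as did 3595 of the 17741 genes tested, and DESeq2 and limma voom also passed 0 of 6. Gkn1 was 3.55 times higher in knockouts by group means, with a fitted log2 difference of 1.82 (SE 0.73, 95% interval 0.31 to 3.33, unadjusted p = 0.0204, edgeR adjusted p = 0.156). All 4 exposed knockouts were above all 4 exposed controls for Gkn1, an arrangement that 6.47% of tested genes showed. Without exposed control library 4 its log2 difference was 1.45, and over the 14 alternatives it ran from 1.45 to 2.09, with a lowest adjusted p of 0.0646 in limma voom. The Gkn1 difference therefore did not pass after adjustment under any of these settings.

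**Figure D2:**
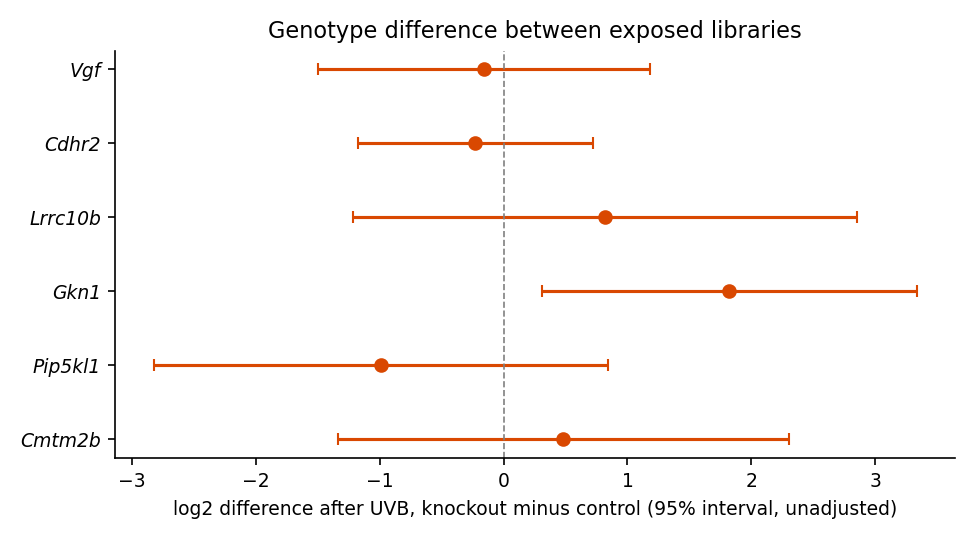
Log2 difference of knockout over control after UVB for the 6 genes (edgeR), with 95% intervals (4 libraries a group); the vertical line marks no difference. The interval of Gkn1 lies above 0, the intervals of the other 5 genes include 0, and no gene passed after adjustment over all genes tested.

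For the other 5 members the exposed genotypes overlapped. The log2 difference of Vgf was -0.16 (95% interval -1.50 to 1.18, edgeR adjusted p = 0.932) and that of Cdhr2 was -0.23 (-1.18 to 0.72, adjusted p = 0.846). The interval of Vgf includes differences of 2-fold in both directions, and that of Cdhr2 in the lower direction only. Cmtm2b had a log2 difference of 0.48 (-1.34 to 2.30, edgeR adjusted p = 0.823), Lrrc10b of 0.82 (-1.22 to 2.85, adjusted p = 0.705) and Pip5kl1 of -0.99 (-2.82 to 0.84, adjusted p = 0.588). A p that misses the threshold does not show that the genotypes had like levels. Exposed controls had 16987 to 19318 genes detected at equal depth and exposed knockouts 19207 to 21538, and the part of this in the values above was not tested.

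Gkn1 lies in a small cluster of gastrokine genes. Gkn2, another secreted gastric protein, lies 22.4 kb away at chr6:87373357-87379497 and had 0 counts in all 16 libraries. Gkn3, 32.3 kb away at chr6:87383256-87388935 on the minus strand, had 0 counts in all 8 unexposed libraries. After UVB Gkn3 stood at 0.942, 1.24, 1.16 and 0 CPM in controls and at 0.909, 1.09, 2.44 and 1.45 CPM in knockouts. The exposed control at 0 was again library 4. Gkn3 was at least 11.8-fold higher in exposed controls and at least 23.0-fold higher in exposed knockouts, against a floor of 3 counts per library. These folds are a description, since Gkn3 passed the filter only through its exposed libraries and was taken up after its values were seen. Its level in exposed knockouts did not pass against exposed controls (log2 difference 0.81, edgeR adjusted p = 0.736). Gkn3 was the only gene of the list of 7 gastric secreted genes that passed the filter on low counts. Of 12 gastric and gut epithelium markers Atp4b, Gkn2, Fabp2 and Cdx2 had 0 counts in every group. The summed level of those 12 markers was 1.47 to 1.77 CPM in unexposed and 0.548 to 1.39 CPM in exposed controls, and 2.19 to 2.78 and 1.22 to 2.66 CPM in knockouts.

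Members were also set beside their genomic neighbours, 22 genes that overlapped them, lay within 20 kb or were the nearest protein-coding gene on a side. Of these 12 could be tested, and after UVB 3 rose and 2 fell in controls, beside 35.8% of all tested genes (17.7% higher and 18.0% lower). In knockouts 3 rose and 1 fell, beside 32.2% (18.1% higher and 14.1% lower). Dpm2, a subunit of the dolichol phosphate mannose synthase beside Pip5kl1, rose by 0.59 in controls (log2, edgeR adjusted p = 0.000804) and by 0.84 in knockouts (adjusted p = 2.82e-05). Rnf44, a RING finger gene beside Cdhr2, rose by 0.50 in controls (edgeR adjusted p = 0.0118) and by 0.64 in knockouts (adjusted p = 0.0022), but did not pass in controls without unexposed library 3 or exposed library 2 (adjusted p up to 0.0852). Antxr1, an anthrax toxin receptor beside Gkn1, fell by 1.74 in controls (edgeR adjusted p = 1.94e-07) and by 1.94 in knockouts (adjusted p = 1.14e-07). The member and its neighbour therefore moved in opposite directions at this locus.

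At Lrrc10b, Syt7, a synaptotagmin that acts in calcium-triggered exocytosis, rose by 3.10 on the log2 scale in knockouts (edgeR adjusted p = 0.0109), and without exposed knockout library 2 it did not pass (adjusted p = 0.0562). On the other side Ppp1r32 fell by 2.98 in controls (edgeR adjusted p = 0.0377), a call lost in 6 of 13 alternatives, among them each that left out unexposed control library 1, 2 or 3 or exposed control library 1, 3 or 4 (adjusted p up to 0.0845), while its log2 difference without exposed control library 2 was -7.54. Ap1s1, an adaptor subunit 1.64 kb from Vgf, did not pass in controls (-0.18, edgeR adjusted p = 0.224), nor did Plod3, a lysyl hydroxylase 29.7 kb from Vgf (0.61, adjusted p = 0.0612). In knockout against control after UVB, 0 of the 12 passed. Strand use in the counting is not stated, so reads of overlapping genes cannot be told apart. The transcript 9430097D07Rik shares 517 exonic bases with Pip5kl1 on the opposite strand and had 10 counts in all. Gm11020, on the same strand 0.443 kb upstream of Cmtm2b, had 0 counts in unexposed libraries, 11 in exposed controls and 28 in exposed knockouts.

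**Figure D3:**
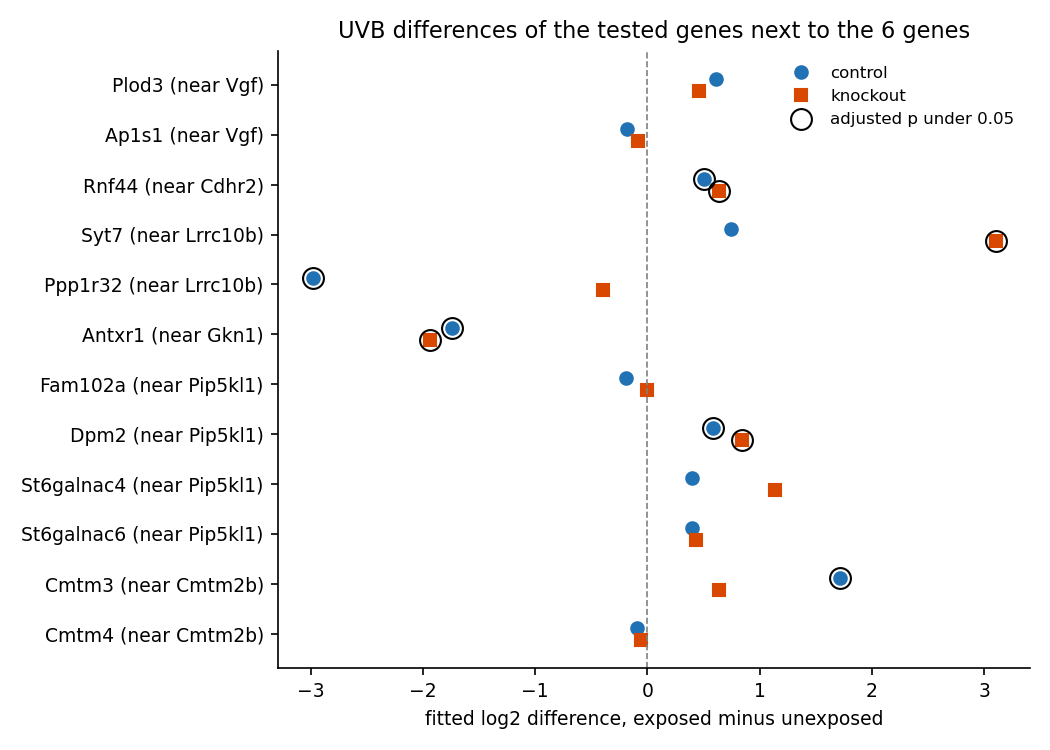
Log2 difference of exposed over unexposed libraries (edgeR) for the 12 tested neighbours, grouped by member, in controls and knockouts (4 libraries a group), with circled points for an adjusted p under 0.05. Dpm2 and Rnf44 lie above 0 and Antxr1 below 0 in both genotypes.

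Few other genes of the granules that store Vgf had enough counts for a test. Of 9 genes of dense core granules 4 could be tested, and 1 rose in each genotype after UVB, beside 17.7% of all genes tested in controls and 18.1% in knockouts. It was Chga, the acidic granule protein chromogranin A (log2 1.03, edgeR adjusted p = 5.85e-05 in controls, and 0.88, adjusted p = 0.000304 in knockouts). Scg2 and Pcsk1n had 0 counts. The peptide processing gene Cpe was lower in exposed knockouts than in exposed controls, by a log2 difference of -0.90 (edgeR adjusted p = 0.000111), and also lower in unexposed knockouts (-0.85, adjusted p = 0.000312). Chga was higher in knockouts, by 0.60 after UVB (edgeR adjusted p = 0.0391) and by 0.75 without it (adjusted p = 0.0206). The exposed Chga call was lost in 8 of 14 alternatives, among them each that left out exposed control library 1, 3 or 4 or exposed knockout library 3 or 4 (adjusted p up to 0.128). The unexposed one was lost in 5 of 14, without unexposed control library 2, 3 or 4 or unexposed knockout library 1 or 3 (adjusted p up to 0.0827). Merkel cells, the neuroendocrine cells of the epidermis, also express Chga. Their 9 markers summed to 25.0 to 32.1 CPM in unexposed and 48.4 to 55.0 CPM in exposed controls, and to 37.1 to 51.5 and 62.2 to 101 CPM in knockouts, with their transcription factor genes Atoh1 and Sox2 at 0 counts in every group. Chga made up most of these sums, at means of 25.6 and 52.2 CPM in unexposed and exposed controls, whereas the channel gene Piezo2 fell in controls, from 2.84 to 0.223 CPM (log2 -3.67, edgeR adjusted p = 0.00248). Of 9 Schwann cell and neuron markers the sums were 96.6 to 134 and 33.0 to 71.8 CPM in controls, and 80.7 to 101 and 35.1 to 53.4 CPM in knockouts, unexposed and exposed in turn. Mbp made up most of these sums, at means of 107 and 42.2 CPM in controls and 84.3 and 40.9 CPM in knockouts. Tubb3 had 0 counts in every group, and Ncam1 stood at 0.82 and 0.966 CPM in controls. The part of either cell type in the Vgf level was not tested.

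A further list held 10 cAMP signalling and immediate early genes, since Vgf is a known target of cAMP and growth factor signals in neurons. It includes the cAMP signalling gene Creb1, which did not pass with UVB in either genotype. In controls 7 rose and 0 fell, beside 17.7% of all genes tested that were higher and 18.0% lower, with a median log2 difference of 1.13, beside -0.02 over all genes tested (0.01 in knockouts). They were led by Atf3, a stress-induced leucine zipper factor, which rose by 3.25 (edgeR adjusted p = 1.13e-05), and by the orphan nuclear receptor gene Nr4a2, which rose by 3.08 (adjusted p = 4.78e-05). Crem rose by 0.99 (edgeR adjusted p = 0.0015), Nr4a1 by 1.93 and Fos by 1.63. The Per1 call in controls (0.64, edgeR adjusted p = 0.0467) was lost in 8 of 14 alternatives (adjusted p up to 0.147). In knockouts 2 of 10 rose, beside 18.1% of all genes tested, Nr4a2 by 1.77 (edgeR adjusted p = 0.00508) and Atf3 by 1.05 (adjusted p = 0.0371), with a list median of 0.51. The Atf3 call in knockouts was lost in 7 of 14 alternatives, among them each that left out unexposed library 2, 3 or 4 or exposed library 2 or 4 (adjusted p up to 0.143), and without unexposed library 1 it rose by 1.64. Whether the genotypes' responses differ was not tested, and 0 of 10 passed in knockout against control after UVB. In unexposed knockouts 2 of 10 were already higher than in unexposed controls, Atf3 by 2.14 (log2, edgeR adjusted p = 0.0079) and Nr4a1 by 1.94 (adjusted p = 0.0355), beside 0.964% of all genes tested. The Nr4a1 call was lost in 6 of 14 alternatives, among them each that left out unexposed control library 1, 2 or 3 or unexposed knockout library 1 or 2 (adjusted p up to 0.187).

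The lists around the remaining members had calls in both directions. Of 8 brush border partners of Cdhr2, 4 could be tested. In controls 0 rose and 1 fell, beside 17.7% of all genes tested higher and 18.0% lower. In knockouts 0 rose and 0 fell, beside 18.1% and 14.1%. The gene that fell was the myosin gene Myo7b, from a mean of 0.364 CPM to 0 counts (edgeR adjusted p = 0.0125). Of 7 phosphatidylinositol phosphate kinases beside Pip5kl1, 2 rose and 3 fell in controls and 1 rose and 2 fell in knockouts, beside 35.8% and 32.2% of all genes tested called in either direction, with list medians of -0.32 and 0.02 (log2). Pip5k1a, which makes phosphatidylinositol 4,5-bisphosphate, rose by 0.72 in controls (log2, edgeR adjusted p = 0.00055), Pip4k2c rose by 0.71 and 0.80 in the respective genotypes, and the endosomal kinase gene Pikfyve fell by 0.81 and 0.57. Of 9 genes of the Cmtm family 6 could be tested, with medians of -0.12 and 0.01. In controls Cmtm3 rose by 1.71 (edgeR adjusted p = 0.0459) and Cmtm7 fell by 0.72 (adjusted p = 0.0315), beside 35.8% of all genes tested called in either direction. In knockouts 0 of the family passed, beside 32.2%. The Cmtm3 call was lost in 10 of 14 alternatives, among them leaving out any of unexposed control libraries 2 to 4 or exposed control libraries 1 to 3 (adjusted p up to 0.189). The Cmtm7 call was lost in 8 of 14, among them leaving out any of unexposed control libraries 1 to 3 or exposed control library 1 or 3 (adjusted p up to 0.104). Cmtm2a, the nearest relative of Cmtm2b, had 30 counts in exposed control library 1 and 2 in all exposed knockouts. Lrrc10, the cardiac relative of Lrrc10b, had 0 counts.

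Among 13593 genes that averaged 1 CPM or more in the exposed libraries of a genotype, those most like each member were found by the root mean square difference of centred log2(CPM + 0.1) profiles over the 16 libraries. Since likeness chose them, their levels are a description. Sprr3, a cornified envelope precursor, was nearest to Gkn1 (difference 0.59), with means of 0, 2.49, 0.0265 and 11.2 CPM in unexposed controls, exposed controls, unexposed knockouts and exposed knockouts, and Gkn3 came next (0.79). Nearest to Vgf was Cd79a, a B cell receptor subunit (0.59), with 0.0691, 10.2, 0.304 and 6.44 CPM in the same order, and the AP-1 gene Fosl1 was the third (0.70), with 3.29, 162, 8.32 and 128 CPM. Epgn, an epidermal growth factor receptor ligand, was the third for Cdhr2 (0.52), with 8.92, 481, 7.94 and 453 CPM. Dio2, the deiodinase that activates thyroid hormone, was nearest to Cmtm2b (0.44), with 2.09, 46.1, 2.59 and 41.8 CPM, and the p53 target Pmaip1 was the third (0.61). Phlda1 was the third for Pip5kl1 (0.69), with 14.7, 288, 24.5 and 182 CPM. For Lrrc10b the tubulin gene Tubb6 was the second, at a wider difference of 0.93.

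**Figure D4:**
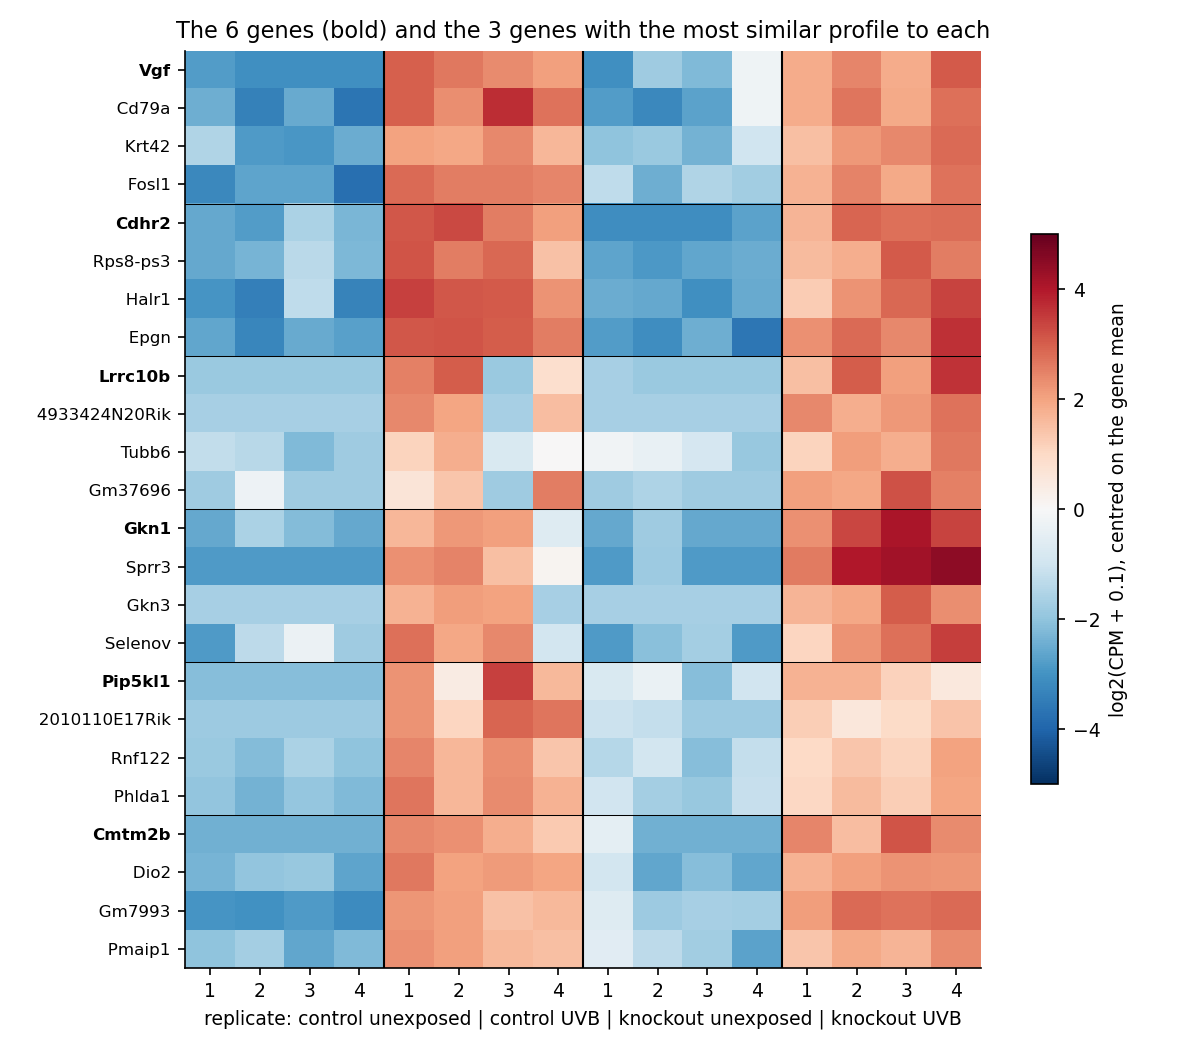
Heat map of log2(CPM + 0.1), centred on each gene's mean, for the 6 genes (bold) and the 3 most like genes of each (rows) over the 16 libraries (columns, 4 a group, from unexposed control to exposed knockout); red is above and blue below the gene's mean. Unexposed blocks are blue and exposed blocks mostly red, and Lrrc10b is blue in exposed control library 3, where it had 0 counts.

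The markers of other cells moved with exposure too, and the part of those cells in the members' levels was not tested. The 7 neutrophil markers summed to 67.2 to 228 CPM in unexposed and 669 to 1089 CPM in exposed controls, and to 90.9 to 190 and 309 to 571 CPM in knockouts. Of the 4 tested, 3 rose in controls and 2 in knockouts and 0 fell, beside 17.7% and 18.1% of all genes tested that were higher. S100a8 and S100a9, which keratinocytes also make, rose in both genotypes and made up most of these sums. Their means were 367 and 488 CPM in exposed controls. Cxcr2 rose in controls only (log2 0.94, edgeR adjusted p = 0.00399), and Csf3r did not pass in either genotype. Camp had 0 counts in both exposed groups. Endothelial markers, for Tie1 above, summed to 22.8 to 31.9 CPM in unexposed and 9.13 to 25.6 CPM in exposed controls, and to 53.3 to 82.1 and 29.2 to 50.4 CPM in knockouts. Flt1 made up most of these sums, at a mean of 24.7 CPM in unexposed and 12.8 CPM in exposed controls. Vwf also fell in controls, from 2.62 to 0.587 CPM (log2 -2.16, edgeR adjusted p = 0.0103). In unexposed and exposed controls Tek stood at 0.423 and 1.28 CPM and Pecam1 at 1.38 and 2.29 CPM, neither of which passed. In knockouts both were lower after UVB, Tek at 1.15 and 0.52 CPM and Pecam1 at 1.62 and 0.977 CPM, and neither passed. The 8 testis germ cell markers, looked at because mouse Cmtm2b is best known from testis, summed to at most 1.40 CPM in any library. The 8 Langerhans cell markers summed to 628 to 847 CPM in unexposed and 738.5 to 938 CPM in exposed controls, and to 691 to 1048 and 941 to 1181 CPM in knockouts. After UVB 5 of these 8 were higher in knockouts than in controls and 0 lower, beside 2.36% and 2.32% of all genes tested. In unexposed epidermis 2 of the 8 were already higher in knockouts and 0 lower, beside 0.964% and 1.14%. The list's median log2 difference between genotypes was 0.61 unexposed and 0.86 after UVB. Epcam, the largest part of the sum, went the other way without passing. Its means were 385 CPM in exposed controls and 300 CPM in exposed knockouts (log2 -0.36, edgeR adjusted p = 0.0816). The 7 T cell markers summed to 80.5 to 104 and 64.1 to 69.2 CPM in controls and to 54.4 to 90.9 and 63.5 to 109 CPM in knockouts. The 7 melanocyte markers summed to 41.3 to 78.7 and 38.7 to 96.8 CPM in controls and to 23.1 to 38.4 and 32.2 to 48.7 CPM in knockouts. The 7 fibroblast markers summed to 43.1 to 81.7 and 18.7 to 40.7 CPM in controls and to 105 to 354 and 96.1 to 119 CPM in knockouts, with the knockout ranges above those of controls both with and without UVB. Postn made up most of these sums, at means of 55.5 and 26.4 CPM in controls and 214 and 102 CPM in knockouts. Col1a1 stood at 0.405 and 1.28 CPM in controls and at 1.675 and 1.43 CPM in knockouts. After UVB 1 of 6 tested, Postn, was higher in knockouts and 0 were lower, beside 2.36% and 2.32% of all genes tested. The 5 skeletal muscle markers summed to at most 7.85 CPM in any library.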

How the data were processed

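Per the labels' protocols, a directional NEBNext kit made the libraries from total RNA of mouse epidermis. The submitters' processing notes name STAR, HTSeq, FastQC and DESeq2; the sources used here give no version, build or strand setting. The authors deposited raw, unnormalized whole-number counts per Ensembl gene in 16 columns, which were joined to the samples by library name. Symbols came from GENCODE M21 (GRCm38) for 49326 of 49585 genes, and 259 had none.

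The members, lists and tests were chosen with earlier results of these data known. Counts were fitted with edgeR 4.0.16 (R 4.3.3): filterByExpr, TMM scaling, and a robust quasi-likelihood model with 1 mean per group over all 16 libraries, with two-sided F tests adjusted by Benjamini-Hochberg over 17741 genes. CPM are counts divided by the TMM-scaled library size. The common biological coefficient of variation was 0.445, and the genes tested held at least 99.94% of each library's counts. Scripts were tested on simulated data. Named genes were the 6 members, the neighbours, 3 like genes a member, and up to 4 genes a list that passed, by smallest p. Gkn2, Gkn3, Tie1, Creb1, Fos, Nr4a1, Per1, Pip4k2c, Cmtm2a and genes named as at 0 or as markers were taken up after their values were seen. DESeq2 1.42.0 and limma 3.58.1 served as alternatives, beside other scalings, no filter, fits on only the libraries compared, and leaving out each library. Python 3.11.15 with matplotlib 3.10.9, numpy 2.4.6 and pandas 2.3.3 made the tables and figures. The results of 1 list are not reported here.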

Additional observations from a re-analysis of the deposited data

Results flagged for a closer look

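Among 24 groups of 4 libraries (6 genes in 4 groups), 5 had a library far from the others, all of them unexposed and all because 1 library held counts where the others held 0. Chance flags about 1 in 20 groups, and a group with 1 value above 0 is always flagged. Vgf stood at 0.0219 CPM in unexposed control library 1, from 1 count. Cdhr2 stood at 0.0312 CPM in unexposed knockout library 4 and Lrrc10b at 0.0163 CPM in unexposed knockout library 1, also from 1 count each. Gkn1 was at 0.0708 CPM in unexposed knockout library 2, from 4 counts, and Cmtm2b at 0.277 CPM in unexposed knockout library 1, from 17 counts. Without that library each group held 0 counts, and the lower bounds of the fold after UVB were then 66.3 for Vgf in controls, 94.1 for Cdhr2, 34.9 for Lrrc10b, 90.3 for Gkn1 and 41.7 for Cmtm2b in knockouts.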

How the results depend on the processing

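Knockout against control after UVB gave 830 genes in edgeR and 1493 in DESeq2, and 419 to 1356 when each library was left out, with 419 without exposed knockout library 2 and 1356 without exposed control library 2. Unexposed knockout against control gave 373, 742 in DESeq2 and 134 to 435 with each library left out. UVB against unexposed gave 6343 genes in controls (5520 to 6501) and 5710 in knockouts (4625 to 5474). For the 6 members, 0 of 84 alternative genotype differences after UVB passed; 1 changed sign, Vgf, whose log2 difference ran from -0.47 to 0.016 with each library left out, the latter without exposed control library 1 (edgeR adjusted p = 0.997; the cause was not tested). Of the members' alternative log2 differences with UVB, given as a description, 8 of 83 in controls and 9 of 84 in knockouts moved by over 1 SD. Of 627 alternative values of 45 calls on other genes, 566 still passed, 61 did not and 0 changed sign. With a limit of 0 unexposed counts the near-silent class held 12 genes in controls and 17 in knockouts, with a limit of 10 it held 46 and 65, and with at least 20 counts in each exposed library 11 and 12. No paired analysis was possible because replicate numbers follow the order of accessions and pair no libraries. With 4 libraries a group and members at 0 to 10 CPM, intervals of the genotype difference spanned several-fold, and where an unexposed group held 0 counts its level is known only to lie under the floor.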
